A study of Danio rerio with 8 samples.

Results

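Heat shock proteins of the cytosol and the mitochondrion were followed through their transcripts in whole zebrafish larvae. The genes were taken by symbol: every row whose symbol begins with hsp followed by a digit or by a, b, d or e, or with dnaj, except 7 genes of the endoplasmic reticulum (hspa5, hsp90b1, dnajb9a, dnajb9b, dnajb11, dnajc3a and dnajc3b). This gave 75 of 35197 rows: 3 HSP90, 13 HSP70, 9 small heat shock protein, 46 DNAJ and 2 HSP60/10 genes, and 2 genes, hspbp1 and hspbap1, whose products bind heat shock proteins. The symbol did not sort by compartment in every case. By textbook localization 11 of the 75, among them dnajc10, dnajb12a and hspa13, were placed in the reticulum or other inner membranes, and 10 in the mitochondrion. The group of cytosolic and nuclear proteins also holds genes that were not placed, so it may contain further mitochondrial ones. Of the 75, 74 were abundant enough to test. dnajb13, which encodes an axonemal J protein, was not, with 5 to 13 estimated counts in each library.

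The 8 libraries each came from a single larva at 6 days post fertilization. There were 4 larvae homozygous for osgep G177A, called homozygotes here, and 4 wild-type siblings. The design text calls them zygotic homozygotes. osgep encodes the catalytic subunit of KEOPS, which adds an N6-threonylcarbamoyl group to transfer RNA, and no treatment is listed for either group. The allele is carried in all cells of the larva, and the RNA is of the whole body, so fewer cells of a type and less RNA per cell cannot be told apart.

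Heat shock proteins are molecular chaperones. HSP70 binds exposed hydrophobic stretches of client proteins in an ATP-driven cycle, J proteins (the DNAJ family) deliver clients and trigger ATP hydrolysis, and nucleotide exchange factors release them. HSP90 acts later on kinases, receptors and, in muscle, myosin. Small heat shock proteins hold unfolded proteins without ATP, and HSP60 with its lid HSP10 folds proteins inside the mitochondrion. Transcription of the inducible members is controlled by heat shock factors such as HSF1, while others are expressed constantly in all cells.

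Library totals ranged from 14398812 to 18569171 estimated counts in homozygotes and from 16642514 to 19052599 in wild-type larvae. The heat shock genes took 1.47 to 1.61% of the counts in homozygotes and 1.4 to 1.67% in wild-type larvae. Most of that was hspa8 and hsp90ab1, which together made up 79.6 to 85.2% of the counts of all 75 genes in homozygotes and 87.3 to 89.5% in wild-type larvae. osgep itself was at 1.64 to 3.68 CPM in homozygotes and 5.55 to 11.5 CPM in wild-type larvae. Levels are given as CPM, counts per unit of library size with sizes scaled by the TMM method, and they compare a gene between larvae, not genes with each other, because transcript lengths were not used. With all 8 libraries 226 of all tested rows were called, and leaving out wild-type 4 raised this to 306. Leaving out wild-type 1 or homozygote 2 raised the number of calls most, to 2130 without wild-type 1 and 1158 without homozygote 2. The counts of calls are also given without this pair. The pair is set apart here by that rise, so a larger count without it carries no separate weight.

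hspa9, the mitochondrial HSP70, was the single heat shock gene called between the genotypes. It was 1.77-fold higher in homozygotes. In numbers, 1 of 74 tested genes was called higher and 0 were called lower (edgeR quasi-likelihood test, Benjamini-Hochberg adjusted p below 0.05 over all 21447 tested rows). Over all tested rows 0.284% were called higher and 0.769% lower. At an unadjusted edgeR p below 0.05, 13 heat shock genes were higher and 3 lower (17.6% and 4.05%), where all rows gave 9.84% and 12.4%. Groups did not overlap in 8 genes (10.8%), close to the 10.4% of all rows. Of these, 7 lay higher in every homozygote (hspa9, dnaja1, hsp90aa1.2, dnajc11b, dnaja3b, dnajc25 and dnajb5; 5.5% of all rows did so) and 1 lower (hsp90ab1; 4.95% of all rows). The median log2 fold change was 0.06, against 0.02 for all rows, with 43 genes above 0 and 31 below.

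By family, the median log2 fold change was 0.44 for the 3 HSP90 genes and 0.14 for the 9 small heat shock proteins. It was 0.05 for the 45 DNAJ genes tested, 0.06 for the 2 HSP60/10 genes and 0.002 for the 13 HSP70 genes. These medians lie near that of all rows in the 2 largest families because their genes spread to both sides. HSP70 genes ran from -0.50 for hspa8 to 0.82 for hspa9, and DNAJ genes from -0.52 for dnajc8 to 0.88 for dnaja1. No call other than that of hspa9 was made in any family.

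**Figure D1:**
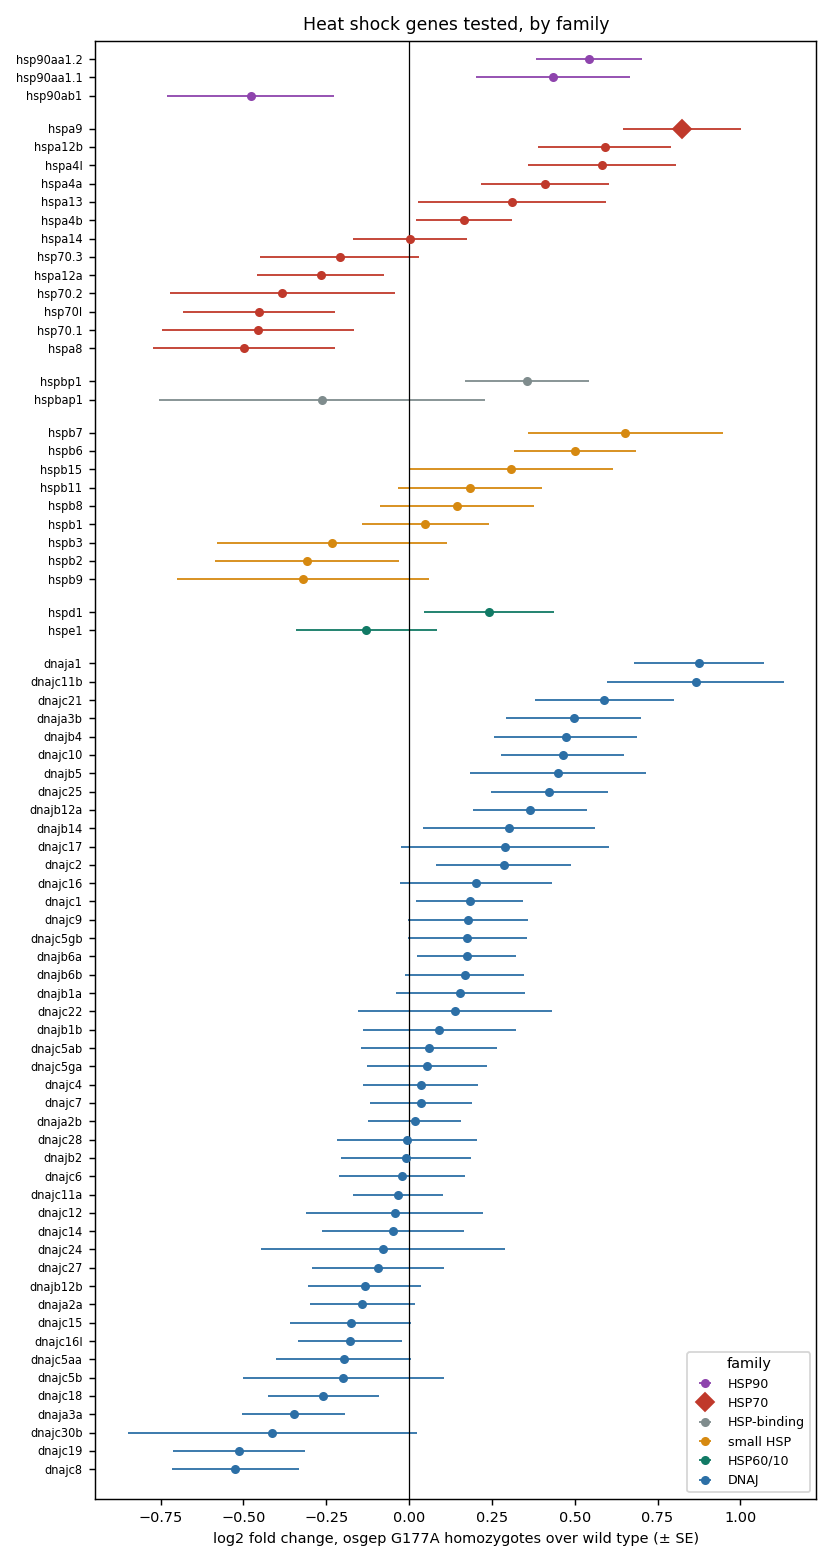
Log2 fold change of homozygotes over wild-type larvae (x axis, points, with bars of 1 SE) for the 74 heat shock genes tested, 1 gene a row, grouped and coloured by family. The large diamond is hspa9 at 0.82, the gene that passed the test. Both signs occur within every family.

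In the mitochondrion, hspa9 imports and folds matrix proteins as the motor of the inner membrane translocase. Its level was 262, 207, 232 and 228 CPM in homozygotes 1 to 4, against 165, 130.4, 107 and 123 CPM in wild-type larvae 1 to 4. Every homozygote lay above every wild-type larva, with wild-type 1 the highest of its group and homozygote 2 the lowest of its own. The means were 232 ± 22.8 CPM in homozygotes and 131 ± 24.5 CPM in wild-type larvae (SD, n = 4 each). The log2 fold change was 0.82 (SE 0.18, 95% interval 0.39 to 1.26, edgeR adjusted p = 0.0451). The call was lost by edgeR without wild-type 2 (adjusted p = 0.119), 3 (0.177) or 4 (0.0901) and without homozygote 1 (0.128), 3 (0.107) or 4 (0.0828), and with limma voom (0.0551). Without wild-type 1 and homozygote 2 the log2 fold change was 1.03 (edgeR adjusted p = 0.00299). Those larvae lay nearest the other group, so the larger value follows from leaving them out.

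The partners of hspa9 differed in sign. grpel1, for a nucleotide exchange factor, had 39.0, 40.5, 36.1 and 32.8 CPM in homozygotes 1 to 4. Its levels were 24.7, 26.5, 25.6 and 28.6 CPM in wild-type larvae 1 to 4. The grpel1 groups were apart, with a log2 fold change of 0.49 (SE 0.14, edgeR adjusted p = 0.0857). The other such gene, grpel2, was at 25.8 to 33.5 CPM in homozygotes and 24.2 to 35.6 CPM in wild-type larvae (-0.02, SE 0.16). The partner genes timm44 and pam16 were at -0.06 (SE 0.18) and -0.22 (SE 0.21), with overlapping groups. The matrix J protein is encoded by 2 paralogs with opposite signs. dnaja3b had 10.2, 8.61, 9.94 and 10.9 CPM in homozygotes 1 to 4, against 8.19, 5.09, 6.23 and 8.46 CPM in wild-type larvae 1 to 4 (log2 fold change 0.50, SE 0.20). dnaja3a had 60.6, 56.8, 48.2 and 48.3 CPM in homozygotes 1 to 4, against 69.3, 73.3, 75.5 and 54.3 CPM in wild-type larvae 1 to 4 (-0.35, SE 0.16). The dnaja3b groups were apart, whereas wild-type 4 lay below homozygotes 1 and 2 for dnaja3a.

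dnajc19, for a J protein of the import motor that stimulates mitochondrial HSP70, was at 9.29, 10.4, 6.44 and 7.48 CPM in homozygotes 1 to 4, against 9.70, 12.5, 13.3 and 12.4 CPM in wild-type larvae 1 to 4 (log2 fold change -0.51, SE 0.20). Homozygote 2 lay above wild-type 1, and the other homozygotes lay below all wild-type larvae. Its relative dnajc15 had a log2 fold change of -0.18 (SE 0.18), with overlapping groups. dnajc11 proteins associate with the complex that shapes the cristae, and of the 2 paralogs dnajc11b was at 7.76, 3.68, 6.26 and 4.96 CPM in homozygotes 1 to 4, against 2.47, 3.29, 3.55 and 3.15 CPM in wild-type larvae 1 to 4 (0.86, SE 0.27). dnajc11a was at 52.1 to 62.1 CPM in homozygotes and 52.6 to 60.1 CPM in wild-type larvae (-0.03, SE 0.13). The dnajc11b groups were just apart, by 3.68 CPM in homozygote 2 over 3.55 CPM in wild-type 3. dnajc30b was at 0.577 to 1.70 CPM in homozygotes and 1.01 to 2.30 CPM in wild-type larvae, too low for a narrow estimate (-0.41, SE 0.44).

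The mitochondrial chaperonin genes hspd1 (HSP60) and hspe1 (HSP10) lie next to each other in the GRCz12tu gene order. hspd1 had 226, 229, 204 and 157 CPM in homozygotes 1 to 4, against 132, 219, 159.6 and 181 CPM in wild-type larvae 1 to 4 (log2 fold change 0.24, SE 0.20, 95% interval -0.24 to 0.72). hspe1 had 79.5, 94.4, 65.3 and 67.1 CPM in homozygotes 1 to 4, against 57.1, 119, 73.5 and 85.9 CPM in wild-type larvae 1 to 4 (-0.13, SE 0.21, 95% interval -0.65 to 0.39). Both groups overlapped in both genes, and in these TMM-scaled levels wild-type 1 was the lowest and wild-type 2 the highest wild-type larva for both. Taken as hspd1 counts per 1000 hspe1 counts within a larva, a ratio that no scaling enters and that was chosen after the values were seen, the values were 2840, 2420, 3130 and 2340 in homozygotes 1 to 4, against 2310, 1840, 2170 and 2110 in wild-type larvae 1 to 4. trap1, the mitochondrial HSP90, was at 25.7 to 32.6 CPM in homozygotes and 21.2 to 24.7 CPM in wild-type larvae, with a log2 fold change of 0.38 (SE 0.15). Of the 10 heat shock genes placed in the mitochondrion 4 had a log2 fold change above 0 and 6 below, with a median of -0.08. At an unadjusted edgeR p below 0.05, 3 were higher and 2 lower (30% and 20%, beside 9.84% and 12.4% of all rows). Groups did not overlap in 3 of them (30%, beside 10.4% of all rows).

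**Figure D2:**
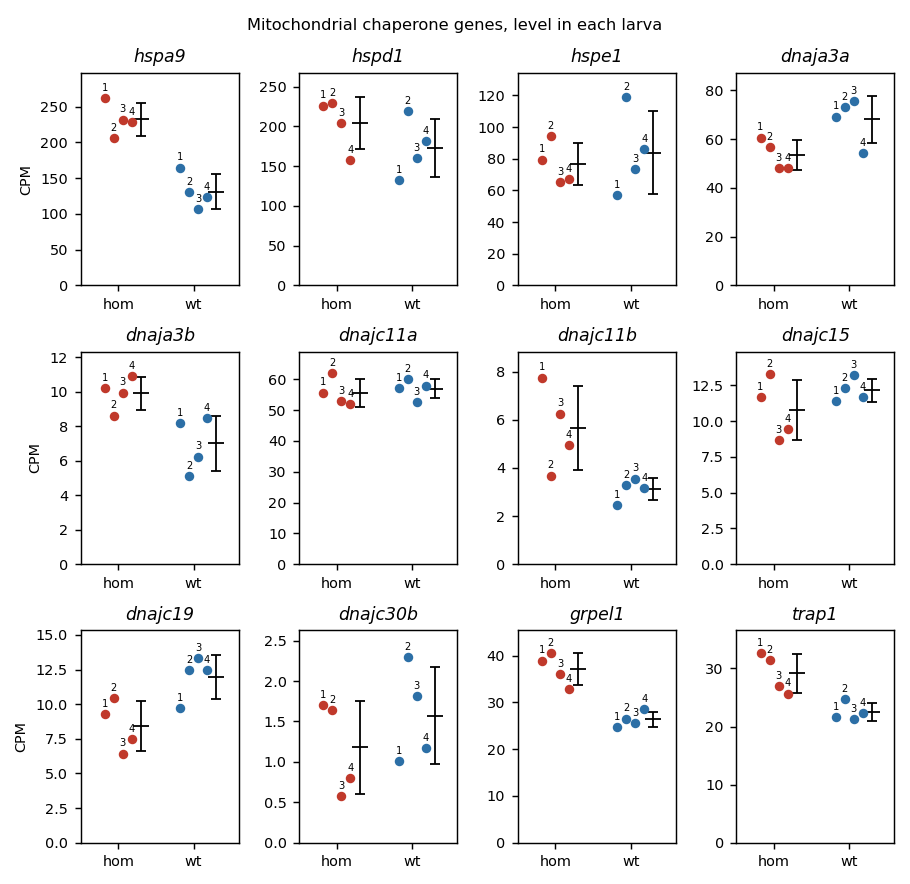
Level in each larva (CPM, y axis from 0; points numbered by larva, homozygotes left in red and wild type right in blue; black marks are the group mean ± SD, n = 4) for 10 mitochondrial heat shock genes and their partners grpel1 and trap1. hspa9, dnaja3b, dnajc11b, grpel1 and trap1 lie higher in every homozygote, while hspd1, hspe1, dnajc11a and dnajc15 overlap.

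The HSP90 genes split by isoform. The HSP90 alpha genes hsp90aa1.1 and hsp90aa1.2 are neighbours in the GRCz12tu gene order, and in zebrafish hsp90aa1.1 serves myosin folding in skeletal muscle. hsp90ab1, the HSP90 beta gene, is expressed throughout the body. hsp90aa1.2 had 83.0, 73.8, 65.2 and 67.9 CPM in homozygotes 1 to 4, against 58.0, 50.7, 38.6 and 51.7 CPM in wild-type larvae 1 to 4, with no overlap (log2 fold change 0.54, SE 0.16, edgeR adjusted p = 0.0902). hsp90aa1.1 had 331, 218, 156 and 225 CPM in homozygotes 1 to 4, against 162, 157, 143 and 226 CPM in wild-type larvae 1 to 4 (log2 fold change 0.44, SE 0.23, edgeR adjusted p = 0.282). Here homozygote 1 was far above the rest and wild-type 4 lay above homozygotes 2, 3 and 4. Reads that match both alpha genes are divided between them by estimation, so their separate values are uncertain.

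hsp90ab1 went the other way, with 4412, 5378, 4649 and 5114 CPM in homozygotes 1 to 4, against 6063, 7559, 6828 and 6770.2 CPM in wild-type larvae 1 to 4. All homozygotes lay below wild-type 1, the lowest larva of its group, and the log2 fold change was -0.48 (SE 0.25, edgeR adjusted p = 0.277). DESeq2 called it lower (adjusted p = 0.0108). With libraries scaled by their totals alone it was -0.09, in a setting that moved the median of all rows to 0.40, so relative to that median it stayed lower. As a share of all counts, hsp90ab1 was at 0.511 to 0.607% in homozygotes and 0.553 to 0.645% in wild-type larvae. The groups were thus apart in TMM-scaled levels but overlapped in shares of the library totals. Within a larva, the counts of hsp90aa1.2 per 1000 counts of hsp90ab1 were 18.8, 13.7, 14 and 13.3 in homozygotes 1 to 4, against 9.56, 6.7, 5.66 and 7.63 in wild-type larvae 1 to 4. These ratios did not overlap between the groups and were chosen after the values were seen, so no test is given. For hsp90aa1.1 they ran from 33.5 to 75 in homozygotes and from 20.7 to 33.4 in wild-type larvae.

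Among cytosolic HSP70 genes the constitutive and the inducible forms lay lower in homozygotes and the exchange factors higher, with no call in either set. hspa8, the constitutive HSP70, had 5243, 7914, 5254 and 6317 CPM in homozygotes 1 to 4, against 7667, 9973, 8181 and 9108 CPM in wild-type larvae 1 to 4. Homozygote 2 exceeded wild-type 1, and the other homozygotes were below every wild-type larva (log2 fold change -0.50, SE 0.28, edgeR adjusted p = 0.298). Without wild-type 1 and homozygote 2 it was called (log2 fold change -0.67, edgeR adjusted p = 0.0159), in a setting where 10.5% of all rows were called lower. Those are the larvae that overlapped, so leaving them out sets the groups apart by choice. With library totals the log2 fold change of hspa8 was -0.12. Counts of hspa9 per 1000 counts of hspa8 in the same larva were 50, 26.1, 44.2 and 36.2 in homozygotes 1 to 4, against 21.5, 13.1, 13 and 13.5 in wild-type larvae 1 to 4. This ratio sets the gene called higher against one with a negative log2 fold change. It was chosen after the values were seen, so no test is given.

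Skeletal muscle markers also differed between larvae of a group. Of 10 markers, 0 were called higher and 0 lower. Without adjustment (edgeR p below 0.05) 0 were higher and 3 lower (30%), where all rows gave 9.84% and 12.4%. The median log2 fold change was -0.70, against 0.02 for all rows. Of the 10 markers 8 had a negative log2 fold change and none was at 0 counts. Their summed level was 48714, 86153, 42755 and 44992 CPM in homozygotes 1 to 4, against 59696, 82232, 84064 and 78659 CPM in wild-type larvae 1 to 4. In this sum homozygote 2 exceeded every wild-type larva and wild-type 1 was the lowest of its group. Single markers differed. For myhz1.1, myhz2 and smyhc1 homozygote 2 exceeded every wild-type larva, and for ckma, ckmb and tnnt3b it exceeded wild-type 1 alone. It exceeded wild-type 1 and 4 for pvalb1, pvalb2 and mylpfa, and wild-type 2 alone for actn3b. For hspa8, homozygote 2 was the highest homozygote and wild-type 1 the lowest wild-type larva. There homozygote 2 exceeded wild-type 1 alone, as it did for ckma, ckmb and tnnt3b but not for the summed level. The part of muscle content in the levels of hspa8 and the other heat shock genes was not tested.

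The inducible HSP70 genes serve as a readout of heat shock factor activity. hsp70.1, hsp70.2 and hsp70.3 are consecutive genes in the GRCz12tu order, and hsp70l is a further copy; all 4 are close in sequence and their single values are uncertain. None was higher in homozygotes on average: log2 fold changes were -0.46 (SE 0.29) for hsp70.1, -0.38 (SE 0.34) for hsp70.2, -0.21 (SE 0.24) for hsp70.3 and -0.45 (SE 0.23) for hsp70l, none of them called. Their summed level was 34.2, 30.9, 21.4 and 49.4 CPM in homozygotes 1 to 4, against 55.5, 42.3, 34.9 and 40.6 CPM in wild-type larvae 1 to 4. The groups overlapped, with homozygote 4 and wild-type 1 the highest of their groups. The 95% interval of the hsp70l log2 fold change, -1.02 to 0.11, excludes a 2-fold rise. With library totals alone hsp70.3 changed sign to 0.15, and the other 3 stayed below 0.

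The HSP110-like genes encode nucleotide exchange factors of HSP70 that also hold unfolded clients. hspa4l was at 29.6, 18.4, 23.4 and 19.5 CPM in homozygotes 1 to 4, against 22.2, 13.8, 13.0 and 11.6 CPM in wild-type larvae 1 to 4, with wild-type 1 inside the homozygote range (log2 fold change 0.58, SE 0.22, edgeR adjusted p = 0.154). hspa4a was at 46.9 to 81.2 CPM in homozygotes and 35.1 to 56.6 CPM in wild-type larvae (0.41, SE 0.19), and hspa4b at 124 to 148 CPM in homozygotes and 109.9 to 131 CPM in wild-type larvae (0.17, SE 0.15). hsph1, the inducible member of this branch, which the symbol rule does not take in, was at only 1.76 to 3.32 CPM in homozygotes and 0.759 to 2.02 CPM in wild-type larvae (0.86, SE 0.37). hspbp1, for another exchange factor, had a log2 fold change of 0.36 (SE 0.19), and hspbap1, whose product binds a small heat shock protein, one of -0.26 (SE 0.49) at 0.577 to 1.19 CPM in homozygotes and 0.411 to 1.88 CPM in wild-type larvae.

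Other HSP70 relatives were less alike. hspa12b, an atypical form known from endothelium, was at 16.2, 18.4, 23.1 and 29.0 CPM in homozygotes 1 to 4, against 17.6, 12.7, 14.1 and 13.2 CPM in wild-type larvae 1 to 4 (log2 fold change 0.59, SE 0.20, edgeR adjusted p = 0.123), and homozygote 1 lay below wild-type 1. Its relative hspa12a was at -0.27 (SE 0.19). hspa14 and the J protein gene dnajc2 encode the ribosome-associated HSP70 pair that meets nascent chains, and their log2 fold changes were 0.002 (SE 0.17) and 0.29 (SE 0.20). hspa13, an HSP70 of the microsomes, was at 5.38 to 11.8 CPM in homozygotes and 4.76 to 8.41 CPM in wild-type larvae. Both ranges were wider than the difference between the group means of 8.83 CPM in homozygotes and 7.11 CPM in wild-type larvae.

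**Figure D3:**
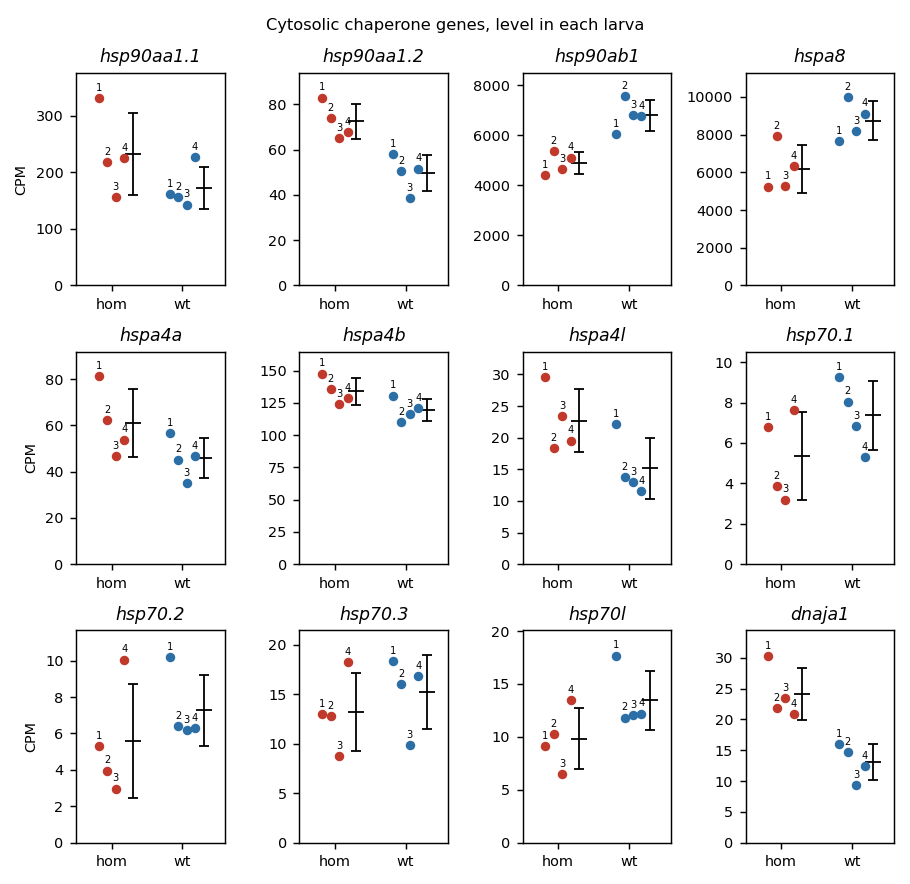
Level in each larva (CPM, y axis from 0; points numbered by larva, homozygotes left in red and wild type right in blue; black marks are the group mean ± SD, n = 4) for HSP90, cytosolic HSP70 and dnaja1 genes. hsp90aa1.2 and dnaja1 lie higher and hsp90ab1 lower in every homozygote, and the 4 inducible HSP70 genes overlap.

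Among the J proteins, dnaja1 had the smallest p. It encodes a farnesylated cytosolic partner of HSP70, and its level was 30.2, 21.9, 23.5 and 20.8 CPM in homozygotes 1 to 4, against 16.0, 14.7, 9.38 and 12.4 CPM in wild-type larvae 1 to 4. The groups were apart, with means of 24.1 ± 4.24 CPM in homozygotes and 13.1 ± 2.90 CPM in wild-type larvae (SD, n = 4 each) and a log2 fold change of 0.88 (SE 0.20, edgeR adjusted p = 0.0521). That value misses the threshold narrowly, and dnaja1 was called by DESeq2 (adjusted p = 0.00424), by edgeR without a filter (0.0364), at a minimum count of 50 (0.0483), without wild-type 1 alone (0.0182) or homozygote 2 alone (0.0387), and without wild-type 1 and homozygote 2 (0.00874), where 7.86% of all rows were called higher. It was not called by limma voom (adjusted p = 0.0687), by edgeR with library totals (0.0536), or by edgeR without any 1 of wild-type 2, 3 and 4 and homozygotes 1, 3 and 4 (0.0687 to 0.165). The other class A genes of the cytosol differed little, with log2 fold changes of -0.14 (SE 0.16) for dnaja2a and 0.02 (SE 0.14) for dnaja2b. Counts of dnaja1 per 1000 counts of dnaja2a were 193, 127, 170 and 145 in homozygotes 1 to 4, against 86.3, 101, 56.1 and 70.7 in wild-type larvae 1 to 4. Like the other ratios, this one was chosen after the values were seen, and no test is given.

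The class B genes include the stress-inducible partners of HSP70. Of 10 tested, 8 had a log2 fold change above 0 and 2 below, with a median of 0.17 and no call. dnajb1a and dnajb1b, the copies of the main inducible J protein, stood at 0.15 (SE 0.20) and 0.09 (SE 0.23). dnajb4 was at 6.26 to 9.51 CPM in homozygotes and 4.26 to 6.42 CPM in wild-type larvae (0.47, SE 0.22), and dnajb5, with 2.43, 2.83, 2.75 and 2.43 CPM in homozygotes 1 to 4, against 1.68, 1.64, 2.14 and 2.16 CPM in wild-type larvae 1 to 4, was low but without overlap (0.45, SE 0.27). dnajb6a and dnajb6b, whose human counterpart suppresses protein aggregation, were at 0.17 (SE 0.15) and 0.17 (SE 0.18), and dnajb2 at -0.01 (SE 0.20).

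Class C genes encode J proteins fixed to particular sites or tasks. Of 30 tested, 15 lay above 0 and 15 below, with a median of 0.01. dnajc21, for a factor of large ribosomal subunit maturation, was at 16.3, 13.8, 10.0 and 12.2 CPM in homozygotes 1 to 4, against 11.3, 8.71, 7.64 and 7.01 CPM in wild-type larvae 1 to 4 (log2 fold change 0.59, SE 0.21, edgeR adjusted p = 0.131), and homozygote 3 lay below wild-type 1. dnajc8, for a spliceosome-associated protein, was at 46.5, 50.5, 38.7 and 35.7 CPM in homozygotes 1 to 4, against 41.3, 74.5, 69.7 and 60.9 CPM in wild-type larvae 1 to 4 (-0.52, SE 0.19), and here wild-type 1 lay among the homozygotes. dnajc7, a cochaperone shared by HSP70 and HSP90, was at 0.03 (SE 0.15), and dnajc9, a histone chaperone, at 0.18 (SE 0.18).

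The J proteins of vesicles showed no difference that the test could separate from the spread. dnajc5aa, dnajc5ab, dnajc5b, dnajc5ga and dnajc5gb are cysteine string protein genes and dnajc6 encodes auxilin, which uncoats clathrin vesicles. Their log2 fold changes ran from -0.20 to 0.18, 3 above and 3 below 0. The 11 members of the reticulum and inner membranes had a median of 0.20 and ran from -0.26 for dnajc18 to 0.46 for dnajc10. The reductase gene dnajc10 was at 21.9 to 26.6 CPM in homozygotes and 13.9 to 22.5 CPM in wild-type larvae (0.46, SE 0.18), dnajc25 at 10.6 to 14.2 CPM in homozygotes and 7.64 to 10.2 CPM in wild-type larvae (0.42, SE 0.18) and dnajb12a at 0.36 (SE 0.17). The remaining J protein genes (dnajc4, dnajc12, dnajc17, dnajc22, dnajc24, dnajc27 and dnajc28) had log2 fold changes from -0.09 for dnajc27 to 0.29 for dnajc17, each smaller than its SE.

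No small heat shock protein gene was called, and the groups overlapped in all 9. hspb6 was at 11.5, 13.1, 14.3 and 9.86 CPM in homozygotes 1 to 4, against 9.98, 8.13, 7.37 and 8.99 CPM in wild-type larvae 1 to 4 (log2 fold change 0.50, SE 0.18, edgeR adjusted p = 0.142), with homozygote 4 just below wild-type 1. hspb7, known from heart and skeletal muscle, was at 4.81, 3.51, 4.17 and 6.36 CPM in homozygotes 1 to 4, against 3.48, 2.30, 4.22 and 1.98 CPM in wild-type larvae 1 to 4 (0.65, SE 0.29). Heart markers did not separate the larvae either: 0 of 4 tested were called higher and 0 lower (at an unadjusted edgeR p below 0.05, 1 was higher and 0 lower), and their summed level was 51.4 to 75.9 CPM in homozygotes and 43.9 to 69.6 CPM in wild-type larvae. Whether heart tissue has a part in the hspb7 values was not tested.

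hspb1, the stress-inducible small heat shock protein, was at 36.7 to 49.2 CPM in homozygotes and 27.7 to 53.8 CPM in wild-type larvae (0.05, SE 0.19), and its sign changed without wild-type 1 or without homozygote 2. hspb8, which pairs with BAG3 in selective autophagy, was at 15.5, 15.0, 15.3 and 30.4 CPM in homozygotes 1 to 4, against 16.7, 20.6, 15.3 and 16.4 CPM in wild-type larvae 1 to 4. Its small positive log2 fold change of 0.14 (SE 0.23) came from homozygote 4. hspb9 likewise had a single high larva, wild-type 2 at 33.8 CPM against 12.3 CPM in the next wild-type larva. hspb2 and hspb3, which form a complex in mammalian muscle, were at -0.31 (SE 0.28) and -0.23 (SE 0.35). hspb15 and the row named hspb11, which the gene name table calls hspb9l, were at 0.31 (SE 0.31) and 0.18 (SE 0.22).

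**Figure D4:**
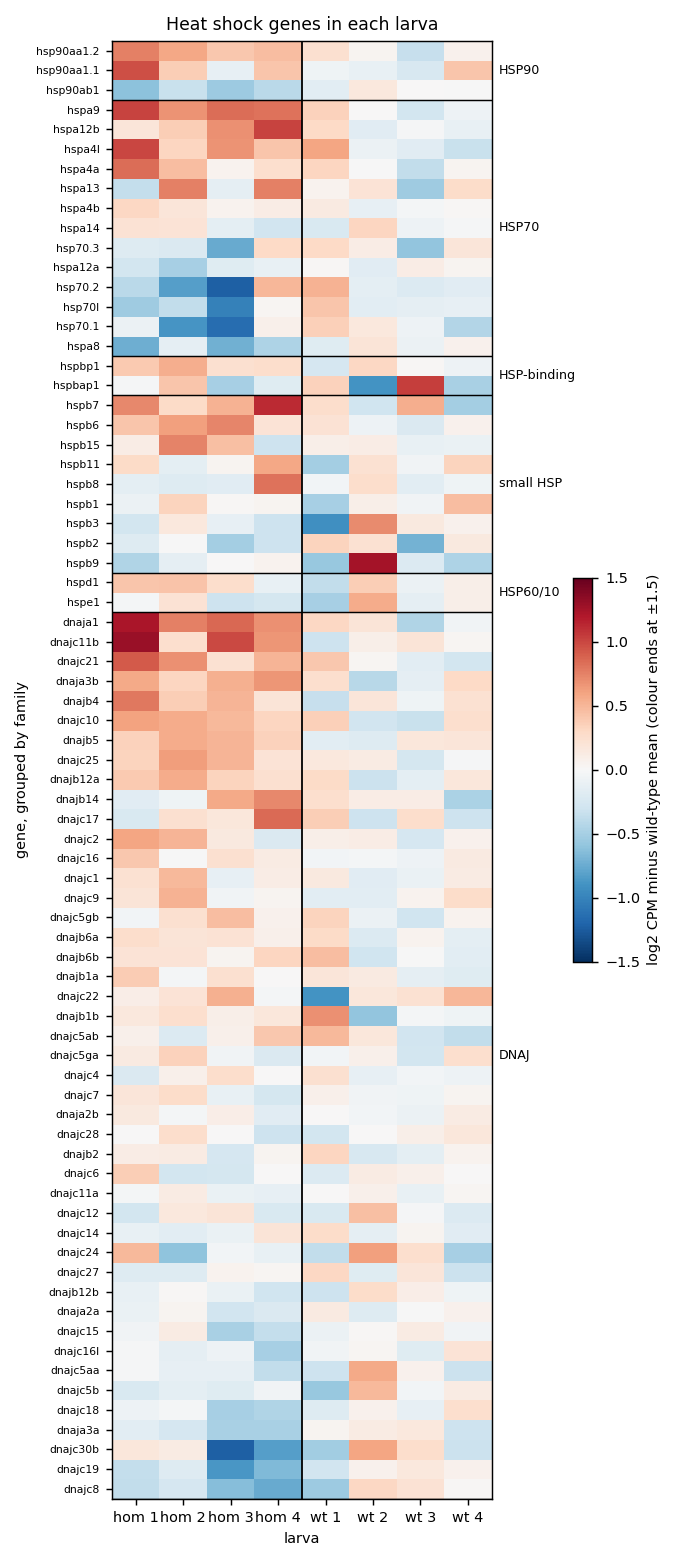
Log2 CPM of each larva minus the wild-type mean (colour, red higher and blue lower; columns are homozygotes 1 to 4 and then wild-type larvae 1 to 4) for the 74 tested genes, grouped by family and ordered by fold change. hspa9, dnaja1, hsp90aa1.2 and hsp90ab1 keep their sign in all homozygotes, whereas inducible HSP70 genes are lowest in homozygote 3.

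Genes that work with the heat shock proteins were taken from 4 lists of 86 names, of which 80 were tested. 3 were called higher and 0 lower (edgeR), beside 0.284% and 0.769% of all rows, and the median log2 fold change was 0.04. At an unadjusted edgeR p below 0.05, 17 were higher and 15 lower (21.2% and 18.8%), where all rows gave 9.84% and 12.4%. Heat shock factor and HSP90 partners gave 0 calls among 26 (6 higher and 3 lower at an unadjusted edgeR p below 0.05). hsf1 itself, the main heat shock factor, was at 20.6, 18.6, 32.4 and 36.5 CPM in homozygotes 1 to 4, against 30.9, 26.0, 10.2 and 13.1 CPM in wild-type larvae 1 to 4 (0.43, SE 0.36). In each group 2 larvae were low and 2 were high, so its spread within a genotype exceeded the difference between them. ahsa1a, the activator of the HSP90 ATPase, was at 10.5 to 14.2 CPM in homozygotes and 5.83 to 9.03 CPM in wild-type larvae (log2 fold change 0.71, SE 0.19, edgeR adjusted p = 0.0753), and chordc1a, another HSP90 cochaperone, at 0.78 (SE 0.23).

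Muscle partners of HSP90 diverged. smyd1b, a myosin-binding methyltransferase, was at 33.7 to 62.4 CPM in homozygotes and 52.4 to 88.1 CPM in wild-type larvae (-0.67, SE 0.21), and its paralog smyd1a at -0.84 (SE 0.29), while the myosin chaperone gene unc45b was at 27.9 to 53.1 CPM in homozygotes and 22.0 to 29.8 CPM in wild-type larvae (0.52, SE 0.20). Among HSP70 partners 0 of 18 were called higher and 0 lower by edgeR (3 and 3 at an unadjusted p below 0.05). bag3, a stress-induced HSP70 cochaperone, was at 10.6 to 15.9 CPM in homozygotes and 7.06 to 9.14 CPM in wild-type larvae (0.64, SE 0.19), and bag6, for a chaperone of membrane protein precursors, at 51.1 to 67.4 CPM in homozygotes and 70.7 to 102 CPM in wild-type larvae (-0.52, SE 0.16). stub1, the ubiquitin ligase that takes clients from HSP70 to degradation, was at -0.54 (SE 0.19). The choice of these 6 genes was made with their values in view, as was that of ahsa1a, chordc1a, trap1, hsph1 and tcp1. The same holds for grpel1, grpel2, timm44, pam16, lonp1, yme1l1a, afg3l2, clpp, phb2a, serpinh1a, sqstm1 and hmox1a.

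Of 30 genes of chaperonin and mitochondrial protein quality control, 2 were called higher and 0 lower. Both calls were the atf5 genes, which encode transcription factors tied to mitochondrial protein stress: atf5b was 2.07-fold higher (log2 fold change 1.05, SE 0.18, edgeR adjusted p = 0.0179) and atf5a 1.96-fold higher (0.97, SE 0.18, edgeR adjusted p = 0.0275). atf5b was at 70.32, 49.2, 56.8 and 64.1 CPM in homozygotes 1 to 4, against 35.4, 32.8, 26.0 and 22.1 CPM in wild-type larvae 1 to 4. Every homozygote lay above every wild-type larva. The atf5b call failed with wild-type 3 (edgeR adjusted p = 0.0855) or homozygote 1 (0.056) left out, and the atf5a call without wild-type 2 (0.0927) or 3 (0.123) or homozygote 1 (0.0905) or 3 (0.0777). Among all 30 genes 9 lay above 0 and 21 below, with a median of -0.16. Of them 6 were higher and 7 lower at an unadjusted edgeR p below 0.05 (20% and 23.3%, beside 9.84% and 12.4% of all rows). The mitochondrial protease gene lonp1 was at 33.3 to 50.1 CPM in homozygotes and 25.6 to 37.4 CPM in wild-type larvae (0.46, SE 0.17). Other quality control genes fell on both sides, such as yme1l1a (0.46, SE 0.16), afg3l2 (0.32, SE 0.14), clpp (-0.29, SE 0.20) and phb2a (-0.27, SE 0.19). All 8 subunits of the cytosolic chaperonin TRiC lay below 0, with log2 fold changes from -0.71 for tcp1 to -0.41, 6 of them at an unadjusted edgeR p below 0.05 and 0 called. Of all 21447 tested rows, 10333 lay below 0, and 12.4% were lower at that unadjusted p. The groups overlapped in all 8 subunits. Scaling by library totals alone moved the median of all rows from 0.02 to 0.40. The subunit values under that scaling are not given here, so their place below 0 rests on the TMM scaling. tcp1 was at 291, 369, 270.2 and 281 CPM in homozygotes 1 to 4, against 334, 689, 514 and 448 CPM in wild-type larvae 1 to 4, with homozygote 2 above wild-type 1.

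Of 6 relatives of the small heat shock proteins and other stress genes, 1 was called higher and 0 lower, beside 0.284% and 0.769% of all rows. Without adjustment (edgeR p below 0.05) 2 were higher and 2 lower (33.3% each), where all rows gave 9.84% and 12.4%. The call was serpinh1b, the collagen chaperone of the reticulum, at 17.5, 8.10, 16.6 and 8.56 CPM in homozygotes 1 to 4, against 2.69, 4.11, 2.95 and 4.44 CPM in wild-type larvae 1 to 4 (log2 fold change 1.84, SE 0.30, edgeR adjusted p = 0.0126). Each homozygote was above all wild-type larvae, and the call failed with wild-type 3 left out (edgeR adjusted p = 0.0618). Its paralog serpinh1a was at 0.72 (SE 0.17). The small heat shock protein relatives tested were the alpha-crystallin genes cryaa (-1.05, SE 0.64) and cryabb (0.52, SE 0.80), and neither was called. The stress genes sqstm1 and hmox1a went the other way from the serpinh1 genes, at -0.54 (SE 0.17) and -0.71 (SE 0.26). For sqstm1 the range was 76.2 to 115 CPM in homozygotes and 121 to 171 CPM in wild-type larvae, and the hmox1a groups overlapped. The 7 reticulum genes that the symbol rule leaves out all had log2 fold changes above 0, with a median of 0.42 against 0.06 for the 74 heat shock genes tested. 1 of them was called, dnajb11, an HSP70 cochaperone of the reticulum, at 35.2, 33.3, 34.7 and 36.6 CPM in homozygotes 1 to 4, against 25.6, 18.2, 14.7 and 15.9 CPM in wild-type larvae 1 to 4 (log2 fold change 0.91, SE 0.18, edgeR adjusted p = 0.0334). Its groups were apart, and the call held without wild-type 1 or homozygote 2 but was lost without any other single larva (edgeR adjusted p 0.0647 to 0.137) and with library totals alone (log2 fold change 1.26, edgeR adjusted p = 0.0514). For hspa5, the HSP70 of the reticulum, the log2 fold change was 0.40 (SE 0.22), and for hsp90b1, its HSP90, 0.29 (SE 0.21); dnajc3a, dnajc3b, dnajb9a and dnajb9b were at 0.42 (SE 0.19), 0.54 (SE 0.15), 0.73 (SE 0.27) and 0.20 (SE 0.33). The difference between the reticulum genes and the others was not tested.

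The count of called heat shock genes rested on which larvae were in. Leaving out wild-type 1 alone gave 6 calls higher and 1 lower (3.99% and 5.77% of all rows), leaving out homozygote 2 alone gave 3 higher and 0 lower (1.85% and 3.46% of all rows), and leaving out any other single larva gave 0 in both directions (edgeR). Without wild-type 1 and homozygote 2, 7 of 74 were called higher (hspa9, dnaja1, dnajc11b, dnajc21, hsp90aa1.2, hspa12b and hspa4l) and 4 lower (hspa8, hsp90ab1, dnajc8 and dnajc19). These are 9.46% and 5.41%, where 7.86% and 10.5% of all rows were called in that setting. The pair was set apart by its effect on the calls, and for hspa8 and dnajc19 it holds the larvae that overlapped. For hspa4l, hspa12b, dnajc21 and dnajc8, wild-type 1 was the only wild-type larva that overlapped the homozygotes. Leaving it out sets those groups apart by choice as well. DESeq2 called 4 higher (hspa9, dnaja1, dnajc11b and hsp90aa1.2) and 1 lower (hsp90ab1), beside 2.7% and 5.2% of all rows. limma voom called none of them (0.159% of all rows higher and 0.476% lower). In simulated data 20 of 157 DESeq2 calls were false, beside 7 of 133 by edgeR. Those genes were drawn independently with dispersions estimated by edgeR, whereas in the larvae DESeq2 called 1693 rows and edgeR 226. The simulated shares therefore need not hold here, and genes called by DESeq2 alone rest on that method. With library totals alone, hspa9 was again the single call (0.41% and 0.163% of rows), and 66 of 74 genes lay above 0, a median of 0.43 against 0.40 for all rows.

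**Figure D5:**
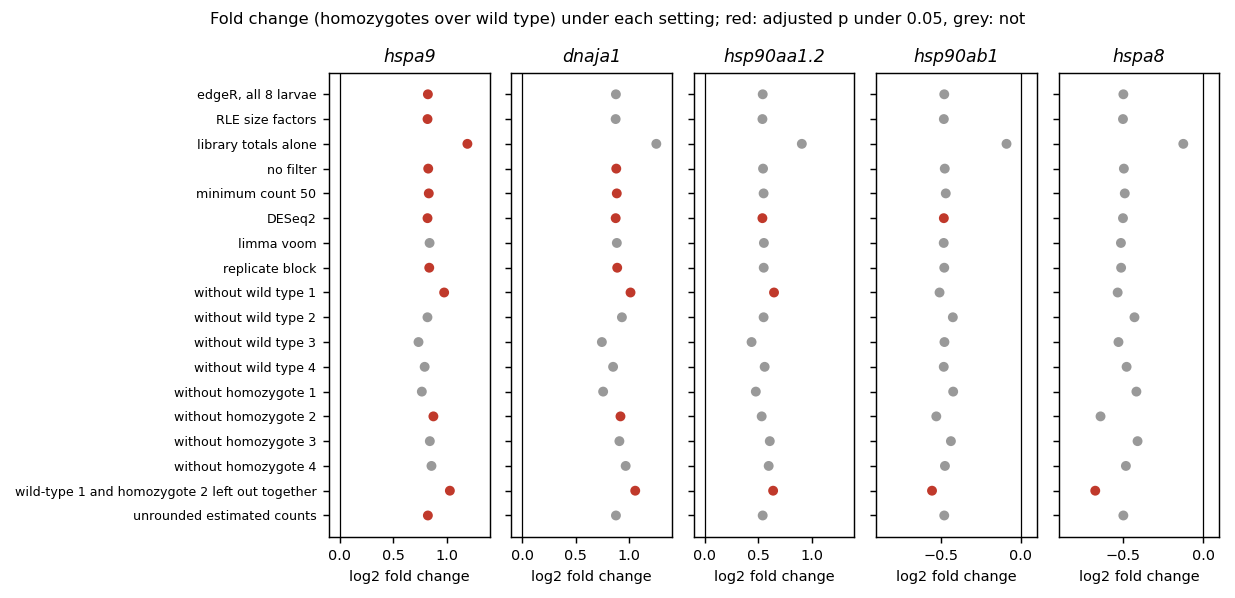
Log2 fold change of homozygotes over wild-type larvae (x axis) under each setting (rows) for 5 heat shock genes; red points have an adjusted p below 0.05 and grey points do not. The sign of all 5 is the same in all 18 settings, the hspa9 values run from 0.74 to 1.19, and scaling by library totals moves every gene to the right.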

How the data were processed

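RNA of 8 single larvae was sequenced after depletion of ribosomal RNA, per the labels' protocols. The authors deposited estimated counts per gene in 1 table. Trimmomatic, STAR 2.7, RSEM and the build danRer11 are named in the submitters' processing notes. Annotation, settings and strandedness are not given in the sources used here, so counts of overlapping or antisense genes cannot be told apart. RSEM divides reads shared by near-identical paralogs.

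Estimated counts were rounded, then filtered (filterByExpr, minimum count 10), which kept 21447 of 35197 rows. They were scaled by TMM, with factors of 0.951 to 1.23 in homozygotes and 0.732 to 1.07 in wild-type larvae. Genotype alone was tested by edgeR 4.0.16 (R 4.3.3) with its robust quasi-likelihood test. P-values were adjusted over all tested rows with a threshold of 0.05. A standard error is the fold change divided by the root of F, and 95% intervals use 6 degrees of freedom. Levels in the heat map have a prior count of 2. The labels give no clutch, tank or day, so the p-values rest on the spread among the larvae at hand. Libraries of a group differed beyond sampling noise (chi-square between 20.7 and 79.1 per degree of freedom).

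All 75 genes had their identifier in the gene name table. Gene neighbours come from the GRCz12tu gene table, which is not the build of the counts, so no coordinates are given. Sequences were not analysed here. The genes, the partner and marker lists, the naming rule and the tests were chosen with earlier results of these data known. The naming rule took members past the threshold, in each family the 3 smallest p-values and the 2 highest mean levels, the mitochondrial members, near-identical copies, called partner genes with hsf1, the 7 reticulum genes and serpinh1b. Other members are named to account for the set. Of the marker lists, lens (0 of 5 called), motile cilia (0 of 4) and neutrophil (4 of 5 called lower) genes are not used further as markers.

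The fits were checked on simulated data, in which 200 of 21447 rows had been given a difference. The simulated counts were filtered again, which kept 21059 rows. A changed row lost there counts as not picked up. edgeR picked up 46% of the 2-fold differences and 80% of the 4-fold ones. A true 2-fold difference can therefore go uncalled here. Among 133 edgeR calls 7 fell on rows without a difference, as did 7 of 124 by limma voom and 20 of 157 by DESeq2. The alternatives were other scalings, filters and tests, unrounded counts, a replicate block, and leaving out larvae singly or wild-type 1 with homozygote 2.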

Additional observations from a re-analysis of the deposited data

Results flagged for a closer look

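In wild-type 1, hsp70.2 was at 10.21 CPM, far above the next wild-type larva at 6.41 CPM. hsp70l was likewise at 17.67 CPM in wild-type 1, with 12.2 CPM in the next. hspb8 was at 30.39 CPM in homozygote 4, with 15.5 CPM in the next homozygote. Each was singled out by Dixon's criterion at the 95% level, since the gap to the nearest larva took up 0.94, 0.936 and 0.968 of the group's range. The check covered only the 40 genes of the naming rule, which leaves out hspb9 with its single high wild-type larva. Of these 80 groups of 4 larvae it singled out 3, and chance alone does so in about 1 group in 20.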

How the results depend on the processing

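The count of heat shock genes called higher was 1. It was 2 with no filter, a minimum count of 50 or the replicate block, 4 with DESeq2, 0 with limma voom and 7 without wild-type 1 and homozygote 2, and 0 to 6 without single larvae. The count called lower was 0, then 1 with DESeq2, 4 without that pair and 0 to 1 without single larvae. Partner genes called higher numbered 3, with 8 by DESeq2, 9 without the pair and 0 to 7 without single larvae. Partner genes called lower numbered 0, with 6 by DESeq2, 20 without the pair and 0 to 9 without single larvae. All rows called numbered 226, with 123 by library totals, 349 with no filter, 1693 by DESeq2, 136 by limma voom, 3952 without the pair and 38 to 2130 without single larvae. Library totals gave 88 rows higher and 35 lower, where TMM gave 61 and 165. The causes were not tested. The replicate block called 333 rows in all. Same-numbered larvae deviated together with correlations of -0.107 to 0.0519. These values give no sign that the numbers pair the larvae, but so few correlations cannot exclude it. With the block dnaja1 was called (edgeR adjusted p = 0.0433).

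Signs turned for uncalled genes. With library totals the log2 fold change was 0.21 for dnaja2a, 0.037 for dnaja3a, 0.34 for dnajc11a, 0.19 for dnajc15, 0.15 for hsp70.3, 0.043 for hspb2 and 0.28 for hspe1. Without single larvae it ran from -0.023 to 0.10 for dnaja2b, -0.25 to 0.084 for hspe1, -0.075 to 0.22 for hspb1, -0.090 to 0.024 for dnajc11a and -0.15 to 0.25 for hspb8. It was -0.17 for hspb1 without the pair. Over the 17 alternatives the edgeR, limma or DESeq2 adjusted p of hspa9 ran from 0.000326 to 0.177, that of dnaja1 from 0.00424 to 0.165 and that of serpinh1b from 2.87e-06 to 0.0618. Genes of a few CPM, such as dnajc30b, are limited by depth.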

Other observations

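The cytosolic chaperonin and the mitochondrial chaperonin can be set beside each other in the same larvae. In TMM-scaled levels within the wild-type group, wild-type 2 was the highest larva and wild-type 1 the lowest for hspd1, hspe1 and the 8 TRiC subunit genes. Wild-type 2 also had the smallest TMM factor of its group (0.732) and wild-type 1 the largest (1.07), so this order can depend on the scaling. cct4, for example, was at 420.2, 584, 408 and 433 CPM in homozygotes 1 to 4, against 458, 1101, 772 and 637 CPM in wild-type larvae 1 to 4. grpel1 counts per 1000 hspe1 counts were 490, 429, 553 and 488 in homozygotes 1 to 4, against 432, 224, 348 and 333 in wild-type larvae 1 to 4, so that homozygote 2 fell just below wild-type 1. These genes were picked after their values were seen, and no test was made.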
